A study of Mus musculus with 4 samples.

Results

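The measurements described here compare multinucleated mouse osteoclasts kept on plastic (mOCp) with the mononuclear pre-osteoclasts from which they formed (pOC), gene by gene. All 18193 genes that a probe set with exactly 1 symbol could name were described, which is every named gene of the series. Each gene was represented by its brightest probe set over the 4 arrays of the series, with values under an array's median set to that median. The comparison rests on 2 of the 4 arrays, 1 for pOC and 1 for mOCp, so there are no replicates, no test between the groups was possible, and a ratio describes these arrays.

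The series follows marrow cells on their way to bone-resorbing osteoclasts and, by its title, concerns Cthrc1, a secreted protein, in the link between resorption and new bone. Cells came from femurs and tibias of C57BL/6 mice that were 8 to 10 weeks old, and 3 days with M-CSF at 100 ng/ml gave marrow macrophages (BMM). After 2 days with M-CSF and RANKL, each at 100 ng/ml, mononuclear cells that stained for tartrate-resistant acid phosphatase (TRAP) were taken as pOC. Another 2 days with both cytokines gave multinucleated osteoclasts on a plastic plate (mOCp) or on dentin, which they resorb (mOCd). M-CSF was present at every stage, and no genotype or other agent was named for any group. Whether 1 mouse or a pool supplied the cells is not given in the sources used here, and everything that separates mOCp from pOC, maturation and 2 more days of culture alike, cannot be told apart.

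Osteoclasts are giant cells that macrophage precursors form by fusion under M-CSF and RANKL. A mature cell seals itself to bone with a ring of actin podosomes, pumps acid through a vacuolar proton pump (V-ATPase) paired with the chloride transporter ClC-7, and secretes cathepsin K and metalloproteinases that digest the exposed matrix. Maturation is also known as a time when cells leave the division cycle, gain mitochondria and lysosomes and come to display the calcitonin receptor and the vitronectin receptor, integrin alpha v beta 3.

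Both arrays carried the osteoclast program that their labels name. Ctsk (cathepsin K) had an intensity of 22.5, 8026.2, 10886.4 and 9744.5 in BMM, pOC, mOCp and mOCd. Acp5, which encodes TRAP, had 37.6, 6674.9, 9801.2 and 8858.4 in BMM, pOC, mOCp and mOCd. Nfatc1, the main transcription factor of osteoclast formation, had 130.9, 2549.2, 1971.8 and 3330.6 in BMM, pOC, mOCp and mOCd. All 3 were bright in pOC already and lay within 2-fold of it in mOCp. Of the 10 osteoclast markers used for the check, 4 were at least 2-fold higher in mOCp (Calcr, Oscar, Itgb3 and Dcstamp), 0 were lower and the other 6 (Acp5, Ctsk, Ocstamp, Atp6v0d2, Mmp9 and Nfatc1) differed by less.

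The 12 promoter stretches printed next belong to counted genes. The hypoxia, glycolysis and cholesterol genes were at least 2-fold higher in mOCp, and the mitotic and interferon genes lower. Only genes with the motif before the gene start could be picked, and the stretch with most matches was taken. Each stretch thus carries its motif by selection. Each is 100 bases that end before the gene start, 5′ to 3′ on the gene's own strand, from RefSeq promoters of build GRCm38.p6, and capitals mark the motif named, read on both strands. The 4 that follow carry the core of the hypoxia response element, ACGTG or GCGTG, which HIF transcription factors bind.
Egln3 (chr12:54204025-54204124, minus strand): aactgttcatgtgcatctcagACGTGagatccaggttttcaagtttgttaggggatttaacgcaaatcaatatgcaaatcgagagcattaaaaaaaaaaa
Bnip3 (chr7:138909537-138909636, minus strand): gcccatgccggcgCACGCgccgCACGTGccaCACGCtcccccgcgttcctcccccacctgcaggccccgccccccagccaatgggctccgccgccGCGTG
Pygl (chr12:70227741-70227840, minus strand): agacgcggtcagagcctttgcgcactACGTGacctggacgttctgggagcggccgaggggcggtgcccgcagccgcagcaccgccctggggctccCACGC
Slc2a1 (chr4:119108636-119108735, plus strand): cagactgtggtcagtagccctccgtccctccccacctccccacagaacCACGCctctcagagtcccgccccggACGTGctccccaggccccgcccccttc

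The next 3 stretches, of mitotic genes, carry TTTGAA, the core of the cell cycle homology region through which such genes are shut off in resting cells.
Cdc20 (chr4:118437344-118437443, minus strand): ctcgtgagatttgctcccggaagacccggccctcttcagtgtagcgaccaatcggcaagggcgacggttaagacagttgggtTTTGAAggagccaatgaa
Ect2 (chr3:27153940-27154039, minus strand): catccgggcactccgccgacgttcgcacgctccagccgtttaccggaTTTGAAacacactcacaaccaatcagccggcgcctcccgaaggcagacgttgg
Kif11 (chr19:37376282-37376381, plus strand): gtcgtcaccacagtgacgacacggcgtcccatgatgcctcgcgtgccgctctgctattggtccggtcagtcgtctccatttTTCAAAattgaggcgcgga

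The next 3, of interferon-induced genes, carry GAAA repeated after 2 further bases, the core of the element bound by interferon-activated factors.
Gbp3 (chr3:142559944-142560043, plus strand): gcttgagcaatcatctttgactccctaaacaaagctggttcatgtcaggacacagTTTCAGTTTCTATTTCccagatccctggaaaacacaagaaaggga
Oas1a (chr5:120907526-120907625, minus strand): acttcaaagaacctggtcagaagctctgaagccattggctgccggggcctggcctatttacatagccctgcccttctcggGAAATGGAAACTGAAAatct
Oas3 (chr5:120777680-120777779, minus strand): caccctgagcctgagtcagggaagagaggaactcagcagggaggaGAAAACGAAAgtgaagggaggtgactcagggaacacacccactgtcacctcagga

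The last 2, of cholesterol synthesis genes, carry CCAAT, the box bound by the factor NF-Y.
Msmo1 (chr8:64733670-64733769, minus strand): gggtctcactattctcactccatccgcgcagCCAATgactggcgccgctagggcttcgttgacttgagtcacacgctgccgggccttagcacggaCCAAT
Cyp51 (chr5:4104698-4104797, minus strand): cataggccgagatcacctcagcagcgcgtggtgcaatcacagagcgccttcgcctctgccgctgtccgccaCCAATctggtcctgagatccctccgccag

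These motifs were counted in windows from 250 bases before to 50 bases after the gene start, for members with a promoter in the table. The hypoxia core was present in 16 of 16 hypoxia response genes and 9 of 12 glycolysis genes counted here as at least 2-fold apart, against 59.3% of the 14452 array genes with a promoter. TTTGAA was present in 28 of 38 mitotic genes (73.7%) and 4 of 27 replication genes (14.8%), against 15.7%. The interferon core was present in 12 of 19 interferon genes (63.2%), against 3.63%. CCAAT was present in 9 of 9 cholesterol genes, against 42.0%, whereas the sterol element core searched, TCACNCCAC or CCACCC, was present in 2 of those 9, against 40.9%. In the hypoxia, glycolysis, mitotic and interferon lists the shares over all members with a promoter were alike. They were 24 of 24 hypoxia, 20 of 25 glycolysis, 30 of 42 mitotic and 17 of 30 interferon genes. Counted members are themselves part of these lists, so the shares had to be alike in part, and members not counted were not set apart. Whether a match goes with the 2-fold difference was not tested. TGATGNAA, searched too, was present in 2 of 8 counted and 10 of 28 listed amino acid stress genes, against 3.24%. TCACGTGA or TCATGTGA was present in 0 of 5 counted and 5 of 25 listed lysosomal hydrolase genes, against 2.56%. For V-ATPase subunits it was 0 of 1 counted and 4 of 13 listed. The letters ACGTG also lie within the E-box CACGTG, and a match is a match of letters that shows no binding.

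Counting a gene as higher or lower required that its floored values differ at least 2-fold and that the brighter one reach the 75th percentile of its array, which was 81.5 in pOC and 77.8 in mOCp. The floor, the median probe set of each array, lay at 14.5 in pOC and 14.8 in mOCp. By that rule 633 of 7192 eligible genes were higher in mOCp (8.8%, or 3.48% of all genes) and 820 were lower (11.4%, or 4.51% of all), which makes 1453 in either direction (20.2% of those eligible). At least 4-fold apart were 121 and 136 of them, and at least 8-fold apart 31 and 8, with bounds for 19 of the higher genes and 3 of the lower. Over all genes the median log2 ratio was 0, and over eligible genes it was −0.03. Counts of list members below stand beside these shares of 8.8% higher and 11.4% lower. Lists near or under 8.8% higher included Rab GTPases (10.3%), metalloproteinases (10%), fusion (7.14%), RANK signalling (6.67%) and V-ATPase subunits (6.25%). The same held for lysosomal membrane (5.88%), citric acid cycle (4.35%) and podosome (3.23%) genes. Near 11.4% lower were cytosolic ribosomal proteins (11.1%) and the proteasome (13.5%), though both lay above the 5.78% of the brightest group. In cultures measured in bulk, fewer cells of a type and less RNA per cell cannot be told apart.

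At the 2-fold edge, Sod2, the mitochondrial superoxide dismutase (1770.9 to 3543.4), and Fkbp9 (628 to 1256.8) were just counted as higher, and Uqcrq, a complex III subunit (1711 to 3417.1), and Ptprs (148.3 to 296.2) just missed it. On the lower side Phf5a, a splicing protein (897.5 to 448.2), and Prpf4, another (126.4 to 63.1), were just counted, and Srpk1 (236.6 to 118.4) and Cnbp (3824.4 to 1913.8) were not. A count near 2-fold therefore separates genes that hardly differ.

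**Figure D1:**
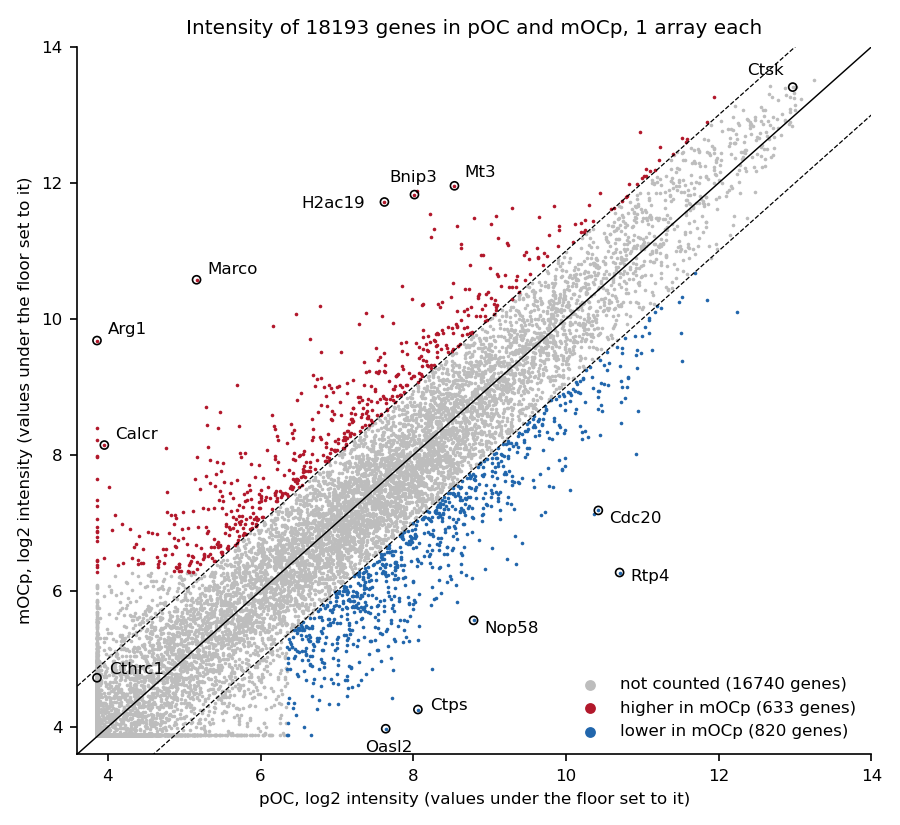
Log2 intensity in pOC (x axis) and mOCp (y axis) for 18193 genes, 1 point per gene, with values under an array's floor set to it. Red points are the 633 genes counted as higher in mOCp, blue points the 820 counted as lower and grey points the 16740 others; the solid line marks equal values and dashed lines 2-fold, and Arg1 and Calcr stand far above the line and Rtp4 and Cdc20 far below it.

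Second probe sets of the same gene gave another reading of the same RNA on the same arrays. Among the counted genes 356 of the higher and 482 of the lower had one above the floor, and the next brightest moved the same way in 327 (91.9%) and 435 (90.2%). It was itself at least 2-fold apart the same way in 210 and 270, and 2-fold apart the other way in 2 and 3. Of genes at least 4-fold apart, 60 of 61 higher and 62 of 66 lower ones had the same direction there. Over 4580 genes with both probe sets above the floor, log2 ratios of the 2 disagreed with an SD of 0.40 per probe set. That value holds differences between transcripts and leaves out cultures and arrays.

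**Figure D2:**
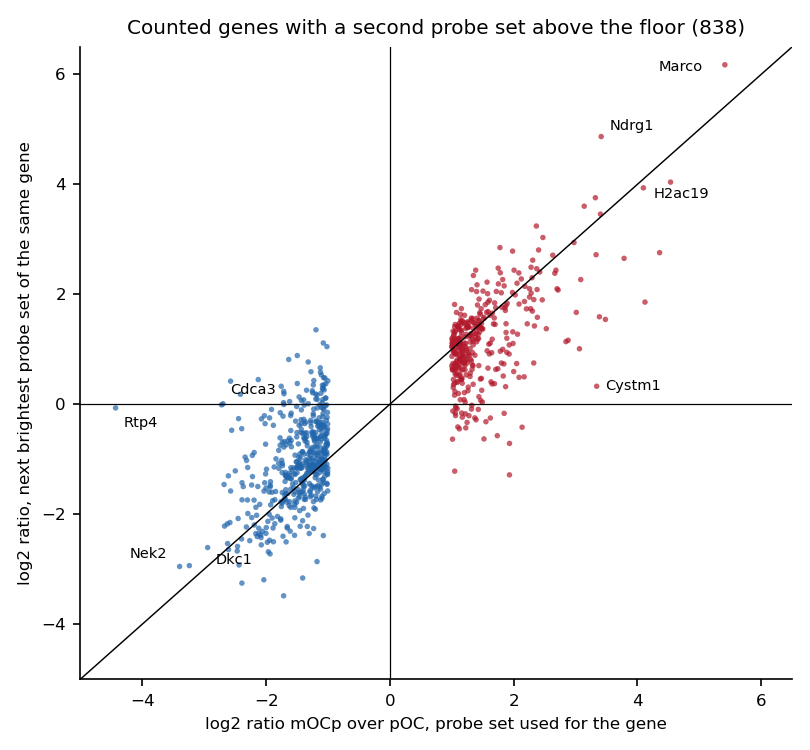
Log2 ratio of mOCp over pOC on the probe set used for each gene (x axis) and on the next brightest probe set of the same gene (y axis), for the 838 counted genes that have one above the floor, red for higher and blue for lower. Most points lie in the lower left and upper right quadrants; Marco is high on both, while Rtp4 and Cdca3 lie near 0 on their second probe set.

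Controls for RNA quality differed little between the arrays, apart from ribosomal RNA. The 3′ to 5′ signal ratio was 1.22 in pOC and 1.15 in mOCp for beta-actin, 0.776 and 0.815 for Gapdh, 2.02 and 1.79 for the transferrin receptor and 1.74 and 2.75 for 18S rRNA. The 12 hybridisation spike-in probe sets, for RNA that is added in equal amount to every array, read brighter in mOCp by a median of 0.40 on the log2 scale (0.32 to 0.74). Scaling the arrays to them lowers the ratio of genes above the floor on both by that amount, less where a value meets the floor, and gives 299 genes higher and 1585 lower, so the share of counted genes on the higher side falls from 43.6% to 15.9%. Ratios below are those of the deposited scaling. Where a list's median changes sign or reaches 0 with the spike-ins, that is said beside it.

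The largest differences measured above the floor on both arrays joined genes of unlike function. Marco, a scavenger receptor of macrophages, had an intensity of 56.3, 35.8, 1527 and 419 in BMM, pOC, mOCp and mOCd. It was highest in mOCp, 42.7-fold above pOC, and 6.18 on the log2 scale on a second probe set against 5.41. Calcr, the calcitonin receptor through which the hormone halts resorption, had 1.8, 15.5, 283.1 and 305.3 in BMM, pOC, mOCp and mOCd and was near the floor until the mature stages. Saa3, an acute phase protein, had 15.9, 264.5, 3779.6 and 931.7 in BMM, pOC, mOCp and mOCd, and Stfa3, a cysteine protease inhibitor of the stefin A group, 3.6, 16.2, 184.3 and 102.4 in BMM, pOC, mOCp and mOCd. Both peaked in mOCp.

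Mt3, a metallothionein that binds zinc and copper, had 9.2, 372.2, 3979.2 and 4561.5 in BMM, pOC, mOCp and mOCd, 10.7-fold higher in mOCp than in pOC. Dbp, a clock-controlled transcription factor, had 53.9, 27.2, 274.2 and 163.4 in BMM, pOC, mOCp and mOCd (10.1-fold), and its second probe set read 2.72 on the log2 scale. Cystm1, a small membrane protein, was 10.1-fold higher (51.7 to 524.7), but its second probe set read 0.33 against 3.34. Mt3 was under the floor in BMM and high in both mature arrays, and the size for Cystm1 depended on the probe set.

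Genes at the floor in pOC came up as bounds. Arg1 (arginase, which splits arginine) had 5.9, 1.6, 821.7 and 88.1 in BMM, pOC, mOCp and mOCd, so that its level was under the floor in BMM and pOC and highest in mOCp (at least 56.7-fold). Vldlr, a lipoprotein receptor, went from 7.3 to 252.8 (at least 17.4-fold), though its other probe sets above the floor had lower log2 ratios of 0.63 to 1.86, Enpp5 from 1.9 to 251.6, and Fstl1, a secreted follistatin-like glycoprotein, from 1.1 to 200. Rcan2, an inhibitor of calcineurin, had 0.3, 7.2, 151.7 and 780.4 in BMM, pOC, mOCp and mOCd (at least 10.5-fold), with a log2 ratio of 1.59 on a second probe set. Rragd, a GTPase that brings mTORC1 to lysosomes, had 10.3 in pOC and 162.3 in mOCp (at least 11.2-fold), with 1.54 on a second one. Dusp14, a phosphatase, and Setd4, a methyltransferase, read 13 to 133.1 and 10.7 to 123.1. Enpp5, Fstl1 and Rcan2 were brighter still in mOCd (523.7, 397.5 and 780.4), whereas Arg1 was dimmer there.

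Hypoxia response genes had the largest share of higher members among the lists with at least 5 eligible genes. In mOCp 17 of 20 eligible members were counted as higher and 0 as lower, with a median log2 ratio of 1.98 over the 27 members with a probe set, beside 0 over all genes. Among them were enzymes that reshape metabolism and secretion: Ero1a, the oxidase that forms disulfide bonds in the endoplasmic reticulum, had 300.7, 444.1, 2856.6 and 1828.6 in BMM, pOC, mOCp and mOCd (6.43-fold higher). P4ha2, a subunit of the enzyme that hydroxylates collagen prolines, had 20.2 in pOC and 100.6 in mOCp (4.98-fold), and its relative P4ha1 198.7 in pOC and 597.5 in mOCp (3.01-fold). Pfkfb3, which makes the activator of phosphofructokinase, had 23 in pOC and 116.2 in mOCp (5.05-fold).

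Bnip3, the mitophagy receptor, had 202.9, 258.9, 3637.7 and 3884.1 in BMM, pOC, mOCp and mOCd, close in BMM and pOC and high in both mature arrays. Ndrg1 had 71.6, 38.9, 415.2 and 193.8 in BMM, pOC, mOCp and mOCd, and Ankrd37 rose from under the floor (10.1 to 117.4, at least 8.10-fold). Ak4 was under the floor in pOC too (1.6 to 336.6, at least 23.2-fold), with other probe sets at 0.34 to 4.04 on the log2 scale. So was Egln3 (11.4 to 297.8, at least 20.5-fold), with a second probe set at 2.76. Mxi1, an antagonist of MYC, was 3.27-fold higher and Kdm3a, a histone H3 demethylase that needs oxygen, 2.40-fold. Members that were not counted included Hif1a, the oxygen-regulated factor itself, with 954.8 in pOC and 578.1 in mOCp, Higd1a with 1036.5 in pOC and 1490.3 in mOCp, and Car9, a carbonic anhydrase often used as a hypoxia marker, with 43.1 in pOC and 58.2 in mOCp. With spike-in scaling 16 of 20 were higher and 1 lower, Hif1a.

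In the glycolysis list 11 of 21 eligible members were higher and 1 lower (median 0.93). The higher genes included enzymes of glycogen, which the list holds beside those of the pathway. Pygl, which releases glucose from glycogen, had 197, 103.1, 576.2 and 493 in BMM, pOC, mOCp and mOCd (5.59-fold), Gbe1, the branching enzyme, 95.7, 72.8, 244.9 and 161.1 in BMM, pOC, mOCp and mOCd (3.36-fold), and Gys1, glycogen synthase, 18.9, 46.8, 140.5 and 193.4 in BMM, pOC, mOCp and mOCd (3.00-fold). Pgm1, which links glycogen to glucose 6-phosphate, was 2.62-fold higher. Genes of breakdown and of synthesis were thus higher alike.

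The 2 lactate transporters of the list moved apart. Slc16a3, the exporter MCT4, had 59.8, 49, 191.4 and 298.1 in BMM, pOC, mOCp and mOCd (3.91-fold higher in mOCp than in pOC). Slc16a1, the transporter MCT1, had 274.6, 553.4, 172.6 and 152 in BMM, pOC, mOCp and mOCd (3.21-fold lower). Hk2, the inducible hexokinase, was 2.57-fold higher (290.1 to 744.9), Pfkp 2.66-fold and Aldoc 8.37-fold (100 to 836.7), the last with a second probe set at 1.01. Aldoa, Pgk1, Pkm and Ldha, among the best known enzymes of the pathway, had log2 ratios of 0.92, 0.88, 0.82 and 0.78 and were not counted.

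**Figure D3:**
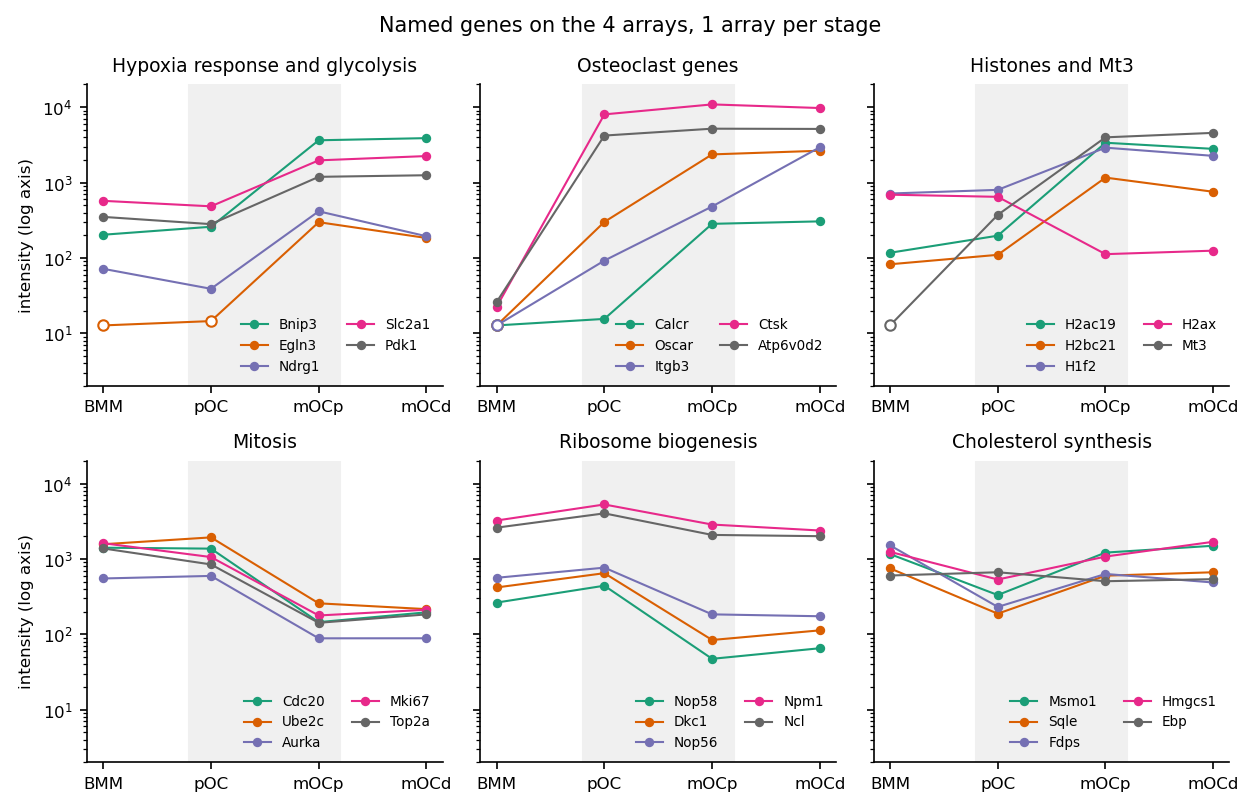
Intensity (log axis) of 30 named genes on the 4 arrays in the order BMM, pOC, mOCp and mOCd, 1 array each (mOCp and mOCd had the same days of culture), with the 2 arrays compared shaded and open circles where the value was at the floor. The hypoxia genes and the histones other than H2ax are higher in both mature arrays than in BMM and pOC, H2ax and the mitosis genes are lower in both, and the cholesterol synthesis genes other than Ebp dip in pOC.

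Cholesterol synthesis and uptake genes were higher for 12 of 21 eligible members and lower for 0 (median 1.05). The 4 arrays show a dip in pOC. Fdps, which makes farnesyl diphosphate and is the target of the bisphosphonate drugs given against osteoclasts, had 1519, 231.6, 633.8 and 488.4 in BMM, pOC, mOCp and mOCd (2.74-fold higher in mOCp than in pOC). Fdft1, squalene synthase, had 477.7, 59.1, 150.5 and 209.7 in BMM, pOC, mOCp and mOCd (2.55-fold), and Idi1, the isopentenyl isomerase, 892.2, 136.9, 305.9 and 444.4 in BMM, pOC, mOCp and mOCd (2.23-fold). For each of these 3 genes the mOCp value lay between those of pOC and BMM.

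Insig1 and Insig2, which hold the sterol sensor in the endoplasmic reticulum, were 2.81-fold and 2.62-fold higher, and Srebf2, the transcription factor of the pathway, 2.07-fold (115.8 to 239.5). Not counted were Ebp (667.7 to 507.6), Lss (84.1 to 97.6), Dhcr7 (60.4 to 87.8) and Mvk, mevalonate kinase, which read 60.6 to 29.6 and was too dim to be eligible. With spike-in scaling 5 of 19 were higher and the median was 0.64. Apoe, the lipid carrier apolipoprotein E, was the 1 efflux gene counted, with 1555.2, 192.8, 1052.5 and 962.1 in BMM, pOC, mOCp and mOCd (5.46-fold higher).

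Fatty acid genes did not move as a block. Scd2, a desaturase, was 2.87-fold higher (551.6 to 1584.3), with 1.51 to 1.58 on its other probe sets against 1.52 on the log2 scale, and Lpin1 and Lpin2, phosphatidate phosphatases, 2.55-fold and 2.31-fold. Fasn, fatty acid synthase, was 2.53-fold lower (166.8 to 65.8). In oxidation 4 of 23 eligible members were higher: Acaa2, the last enzyme of the mitochondrial cycle (712.5 to 2036.5, 2.86-fold), Acadl (613.3 to 1413.8), Etfdh (417.5 to 874.7) and Acsl3 (37.3 to 98.8). Of the 3 with another probe set above the floor, only 2 moved the same way on the next brightest. With spike-in scaling 2 of 23 were higher, and the median of 0.42 became 0.02. Cpt1a, which admits fatty acids to mitochondria, read 340.8 to 386.5.

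Genes of mitochondrial respiration differed mostly by less than 2-fold. Of 53 eligible subunits of the respiratory chain and ATP synthase 53 were brighter in mOCp and 0 dimmer, with a median of 0.48, and 1, Ndufa1 (2292 to 4656.1), was counted. With spike-in scaling that median was 0.08, so that some of these subunits were no longer brighter, and 0 were counted as higher. Citric acid cycle genes had a median of 0.38, which turned to −0.02 with the spike-ins, and 1 of 23 was counted as higher, Mdh1 (2382.7 to 5177.9, log2 ratio 1.12, other probe sets −0.86 to 0.85). Mitochondrial ribosomal proteins lay on the other side: 36 of 42 eligible ones were dimmer in mOCp (median −0.37), and 0 were counted in either direction, against 14 of 42 lower with the spike-ins (median −0.78). Mrps22 (891.3 to 456.2) and Mrpl37 (456.4 to 234) came nearest to 2-fold.

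**Figure D4:**
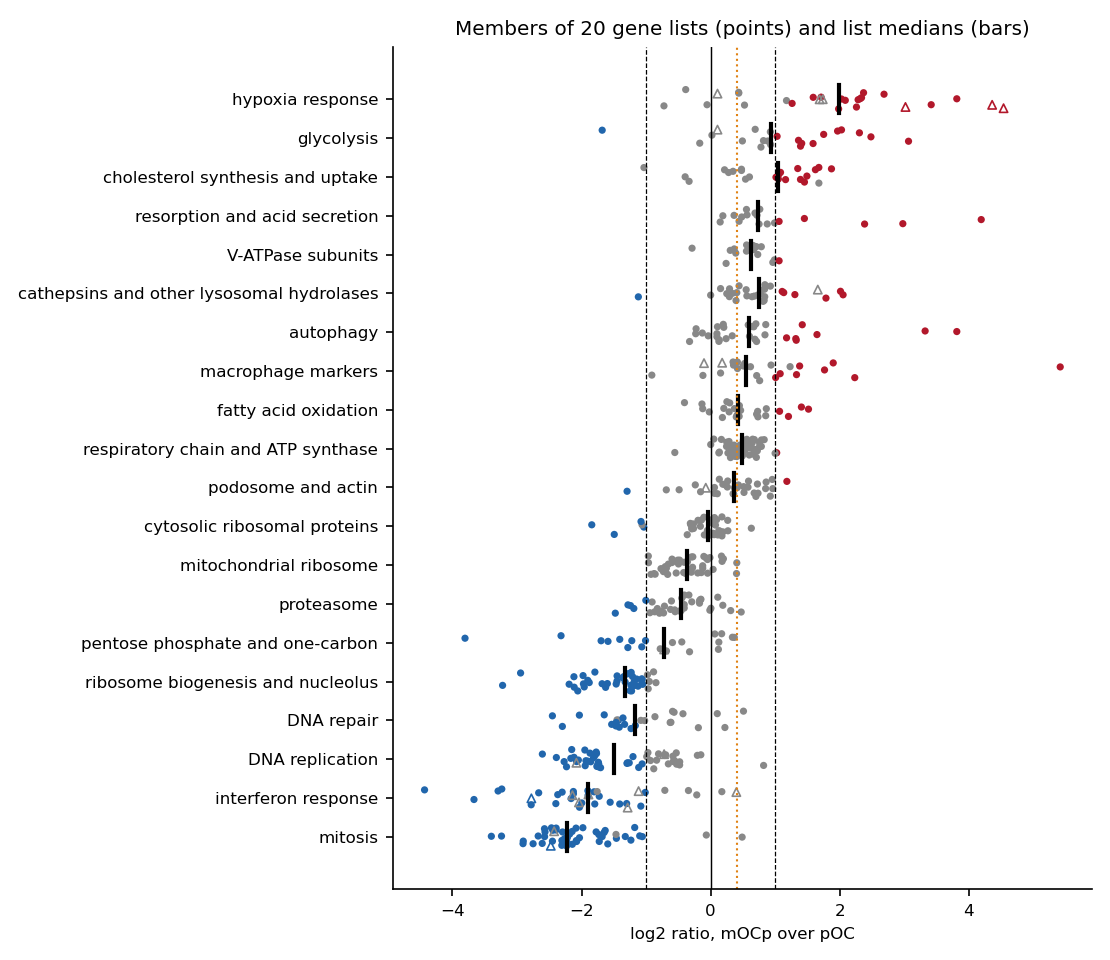
Log2 ratio of mOCp over pOC for the members of 20 gene lists above the floor on at least 1 array (points; red and blue counted, open triangles bounds), with the median over all members that have a probe set as a black bar. Dashed lines mark 2-fold and the orange dotted line the spike-in median of 0.40, and the podosome bar at 0.37 turns to −0.04 with spike-in scaling; medians run from 1.98 for hypoxia response to −2.22 for mitosis.

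Resorption and acid secretion genes were all brighter in mOCp with the deposited scaling, 18 of 18, and 5 of them were counted as higher (median 0.73). Oscar, a collagen-binding receptor that co-stimulates osteoclasts, had 4.8, 300.2, 2362.9 and 2641.6 in BMM, pOC, mOCp and mOCd (7.87-fold higher, and a log2 ratio of 2.94 on a second probe set against 2.98). Itgb3, the integrin beta 3 chain, had 1, 92.1, 480.8 and 2939.3 in BMM, pOC, mOCp and mOCd, 5.22-fold higher in mOCp than in pOC and brightest on dentin. Clcn7, the chloride transporter, had 963.1 in pOC and 2634.1 in mOCp (2.74-fold), and Tcirg1, the V-ATPase a3 subunit of the ruffled border, 1944.1 in pOC and 4052.3 in mOCp (2.08-fold). Genes of acid secretion that were not counted included Slc4a2, the bicarbonate exchanger (1182.8 to 2347.8), Car2 (1251.9 to 2015.1) and Ostm1 (846.9 to 1435.2).

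The metalloproteinases and most pump subunits differed by less than 2-fold. Mmp9 read 6526.8 to 10970.8 and Mmp14 2007.7 to 3684.3. In the V-ATPase list 15 of 16 eligible subunits were brighter (median 0.62), from 4201.3 to 5184 for Atp6v0d2 to 2818.3 to 5589.5 for Atp6v1e1, Tcirg1 was the 1 counted, and Atp6v0a2 the 1 that was not brighter (109.7 to 89.8). With spike-in scaling the medians of the resorption and V-ATPase lists stayed above 0, at 0.33 and 0.22. Members with a log2 ratio under 0.40, Atp6v0d2 among them, were then no longer brighter in mOCp. The lowest ratio among the resorption genes was 0.15 with the deposited scaling.

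Lysosomal hydrolases that digest glycans were among the higher genes. Arsb, a sulfatase that acts on dermatan sulfate, had 249.9, 2003.2, 6907.3 and 7435.7 in BMM, pOC, mOCp and mOCd (3.45-fold). Glb1, the lysosomal beta-galactosidase, had 260, 427.8, 1772.7 and 2967.9 in BMM, pOC, mOCp and mOCd (4.14-fold), and Naglu, which acts on heparan sulfate, 152.3, 164, 661 and 650.9 in BMM, pOC, mOCp and mOCd (4.03-fold). Hexa (2.47-fold), Idua (2.15-fold) and the protease Ctsh (2.19-fold) made up the 6 higher of 29 eligible hydrolases (median 0.75). Ctse, cathepsin E, was lower (450.1 to 207, 2.17-fold), with a second probe set at 0.58. Ctsb and Ctsd read 5314.1 to 7838.3 and 2272.2 to 4052.9 and were not counted. In the list of lysosomal membrane genes Rragd was the 1 counted of 17, and Mcoln1, a calcium channel, read 148 to 294.

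Autophagy genes were higher for 7 of 26 eligible members and lower for 0 (median 0.59, 0.19 with the spike-ins). Of 6 counted members with another probe set above the floor, 5 moved the same way on the next brightest. Map1lc3a, one of the ATG8 proteins that coat autophagosomes, had 203.3, 297.6, 2975.8 and 3898.5 in BMM, pOC, mOCp and mOCd (10.00-fold, second probe set 3.76). Its relatives Gabarapl1 and Gabarapl2 were 2.67-fold and 2.26-fold higher (169.2 to 452.3 and 863.3 to 1949.6), while Map1lc3b read 1584.2 to 2516.4. Atg12 (3.13-fold), Wipi1 (2.51-fold) and the kinase Ulk2 (2.49-fold) were higher too, as was Bnip3, which the hypoxia list also holds. Core genes without such a difference included Becn1 (412.8 to 402.2), Atg5 (241.3 to 259.5) and Atg16l1 (214.7 to 182.8).

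**Figure D5:**
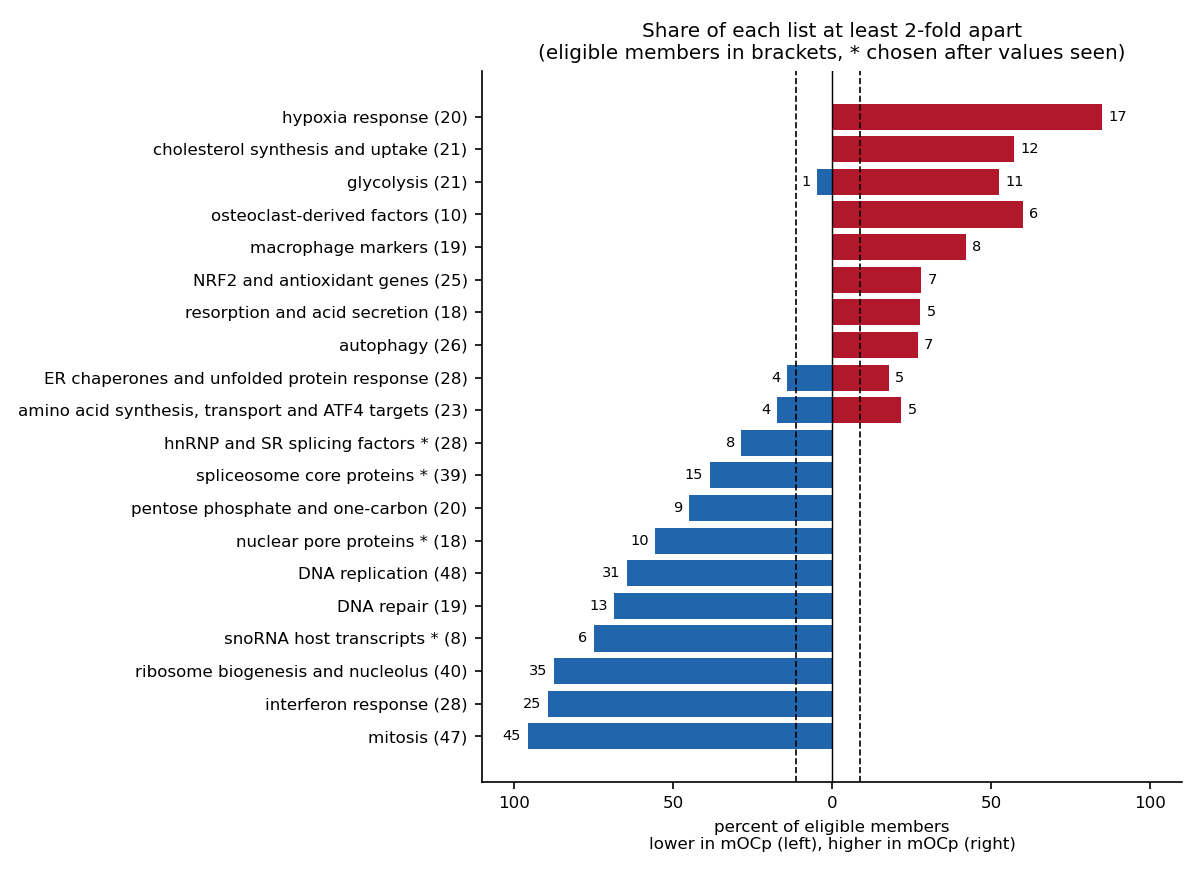
Percent of the eligible members of 20 gene lists that were at least 2-fold higher in mOCp (red, to the right) or lower (blue, to the left), with the number of members at each bar. Dashed lines mark the shares over all 7192 eligible genes, 8.8% higher and 11.4% lower; hypoxia response reaches 85.0% on the right and mitosis 95.7% on the left. Asterisks mark families chosen after their values were seen, and with spike-in scaling the median is 0.00 for osteoclast-derived factors and NRF2 genes, −0.11 for ATF4 targets and −0.38 for ER chaperones.

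Receptors with an ITAM partner and their kinases were higher for 4 of 22 eligible members. Besides Oscar these were Fgr, a Src family kinase (39 to 123), Trem3 (52.7 to 153.1) and Vav3, an exchange factor that osteoclasts need to resorb (320, 136.7, 319.4 and 336.2 in BMM, pOC, mOCp and mOCd). Tyrobp, the adaptor DAP12, read 3182.9 to 5871.6 and the kinase Syk 444.1 to 805.2. The list median was 0.46 and 0.05 with the spike-ins.

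Integrin genes divided, with 3 of 12 eligible higher and 1 lower, and their median of 0.32 turned to −0.01 with the spike-ins. Itgal, the alpha chain of LFA-1, had 162.8, 48.6, 174.4 and 72.8 in BMM, pOC, mOCp and mOCd (3.59-fold higher), and Itga6, a laminin receptor chain, 1805.6, 288, 127.1 and 192.8 in BMM, pOC, mOCp and mOCd (2.27-fold lower). Itgav, the partner of integrin beta 3, read 3992.6 to 4420.7. Only Itgb3 of the pair that forms the vitronectin receptor was counted.

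In the podosome and actin list 1 of 31 eligible members was higher and 1 lower, and the median of 0.37 turned to −0.04 with the spike-ins. The higher gene was Rhou (9.3, 200.2, 453.7 and 776.6 in BMM, pOC, mOCp and mOCd), and the lower one Lpxn, leupaxin, an adaptor of focal adhesions (1683.5, 451.3, 183.9 and 103.2 in BMM, pOC, mOCp and mOCd). Just under 2-fold lay vinculin (Vcl, 575 to 1119.7) and gelsolin (Gsn, 3819.4 to 7398.5). Among Rab GTPases 3 of 29 were higher (10.3%, against 8.8% of all eligible genes), in a list whose median of 0.33 turned to −0.04 with the spike-ins. They were Rab38, known from lysosome-related organelles (24.1, 310.8, 821.8 and 1579.1 in BMM, pOC, mOCp and mOCd), Rab3a (79.7 to 173.3) and Rab31 (547.7 to 1180).

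In ion transport Clic5, a chloride intracellular channel protein, had 11.6, 39.4, 347.7 and 157.6 in BMM, pOC, mOCp and mOCd (8.82-fold) and other probe sets at 2.61 to 4.31 on the log2 scale. Xpr1, the phosphate exporter, was 2.04-fold higher (138.6, 1546.4, 3152.5 and 5134.1 in BMM, pOC, mOCp and mOCd), with other probe sets at −0.77 to 0.99. Itpr3, a calcium release channel, was 2.37-fold higher (159.6 to 377.8). The calcium and NFAT list, with a median of 0.08 that turned to −0.32 with the spike-ins, held 1 lower member, Nfatc2 (247.7, 108.3, 38.4 and 28.7 in BMM, pOC, mOCp and mOCd, 2.82-fold), but its other probe sets read 0.30 to 0.89, against its direction.

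Among fusion genes 1 of 14 eligible was counted, Dcstamp, the receptor-like protein required for fusion (21.3, 2187.1, 4619.2 and 4200.6 in BMM, pOC, mOCp and mOCd, 2.11-fold), and Ocstamp read 1946.5 to 3605.3. In RANK and NF-kB signalling, whose median of 0.27 turned to −0.13 with the spike-ins, 1 of 15 was counted, the adaptor Gab2 (317.1 to 783.1). Transcription factors that differed, in a list whose median of 0.17 turned to −0.12 with the spike-ins and among AP-1 factors, included Maf, a macrophage factor (1131.9, 63.1, 171.4 and 76.8 in BMM, pOC, mOCp and mOCd, 2.72-fold higher), Id3 (46.6 to 123.6, 2.65-fold higher), Mitf (469.4, 1505.5, 524.1 and 917 in BMM, pOC, mOCp and mOCd, 2.87-fold lower, second probe set −1.42) and Batf (86.7 to 20.4, 4.25-fold lower). Fos and Prdm1, both needed for osteoclast formation, read 3554.5 to 2472.7 and 855.7 to 608.1.

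Secreted and surface factors were higher in several lists. Cthrc1, the gene the study chose, had 11.8, 4, 26.4 and 179.9 in BMM, pOC, mOCp and mOCd. It was under the floor in BMM and pOC and above it in mOCp, where it was too dim to be eligible, and its choice by the study means that its direction is not independent. Sema3c, a secreted semaphorin, had 52, 63.1, 232 and 349.9 in BMM, pOC, mOCp and mOCd (3.68-fold), and Efnb2, ephrin-B2, 7.8, 13.9, 117.1 and 64.4 in BMM, pOC, mOCp and mOCd (at least 8.08-fold). Pdgfb, which recruits pericytes and osteoblast precursors, was 2.26-fold higher (452.4, 627.8, 1419.3 and 2371.1 in BMM, pOC, mOCp and mOCd), Vegfa 4.87-fold (23.4, 44.6, 217.2 and 513.5 in BMM, pOC, mOCp and mOCd) and Vegfb 2.39-fold (115.9 to 277.4).

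Lif, a cytokine of the interleukin 6 group, was 2.14-fold higher (6, 89.4, 191.5 and 425.4 in BMM, pOC, mOCp and mOCd), with a second probe set at −0.41 on the log2 scale. Timp2, an inhibitor of metalloproteinases, was 4.25-fold higher (542.9, 551.5, 2346.3 and 1500.9 in BMM, pOC, mOCp and mOCd), with other probe sets at 1.82 to 2.53, and was the 1 counted of 10 eligible in its list. Mfge8, a bridge to apoptotic cells, had 91.4, 156.3, 968.9 and 1057.6 in BMM, pOC, mOCp and mOCd (6.20-fold) and Gas6, another, 739.8, 88.4, 1072.4 and 1513.8 in BMM, pOC, mOCp and mOCd (12.1-fold). Tgfb1 read 406 to 795.1 and Sema4d, a brake on osteoblasts, 2193.7 to 2957.4, and neither was counted. In the list of factors proposed to act on bone formation 6 of 10 eligible were higher, and its median of 0.37 became 0.00 with the spike-ins.

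Macrophage markers were higher in mOCp for 8 of 19 eligible members and lower for 0 (median 0.55, 0.15 with the spike-ins). Several had been far brighter in BMM. C1qa, a complement subunit, had 3372.4, 41.9, 108.9 and 38.9 in BMM, pOC, mOCp and mOCd (2.60-fold higher than in pOC), and C1qc 3518.3, 85.4, 180.1 and 40.6 in BMM, pOC, mOCp and mOCd (2.11-fold). Aif1, an actin-bundling macrophage protein, had 490, 53.6, 251.8 and 60.4 in BMM, pOC, mOCp and mOCd (4.70-fold), and Adgre1, the F4/80 antigen, 1581.9, 319.6, 1191.3 and 491.4 in BMM, pOC, mOCp and mOCd (3.73-fold). These 4 were lower in mOCp than in BMM and dimmer in mOCd than in mOCp.

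Not every macrophage marker shared that pattern. Mrc1, the mannose receptor, had 770.2, 36.3, 33.4 and 11.2 in BMM, pOC, mOCp and mOCd, Fcgr1, an Fc receptor, 1967.2, 57, 30.3 and 16.7 in BMM, pOC, mOCp and mOCd, and Cx3cr1, the fractalkine receptor, 700.4, 28.6, 31.8 and 15.9 in BMM, pOC, mOCp and mOCd. None of these reached the brightness limit in mOCp. The M-CSF receptor Csf1r read 4898.6 to 7511.7.

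Genes of activated macrophages included Acod1, which makes itaconate (243.8, 167.5, 1084.7 and 636.4 in BMM, pOC, mOCp and mOCd, 6.48-fold higher), Tgm2, a transglutaminase (1220.5, 471.9, 1961.6 and 1591.1 in BMM, pOC, mOCp and mOCd, 4.16-fold), and Ptges, prostaglandin E synthase (4.5, 67.8, 268.1 and 144.9 in BMM, pOC, mOCp and mOCd, 3.95-fold). They were 5 of 7 eligible with Arg1 and Clec7a, in a list whose median of 0.11 became 0.00 with the spike-ins. Cfb, complement factor B, came up from the floor (1.8, 13.5, 111.3 and 11.8 in BMM, pOC, mOCp and mOCd, at least 7.68-fold). Among chemokines Cxcl2 (338.7, 44.2, 395.9 and 228 in BMM, pOC, mOCp and mOCd, 8.96-fold), Cxcl3 (12.9, 122.1, 399.5 and 323.1 in BMM, pOC, mOCp and mOCd), Ccl3 and Ppbp were higher and Cxcl10 was lower, 4 and 1 of 13 eligible. Receptors that were higher included Il13ra1 (28.3 to 139.2, other probe sets −0.17 to 2.87), Tnfrsf9 (2.5, 60.9, 205 and 334.9 in BMM, pOC, mOCp and mOCd, other probe sets −0.20 to 2.48) and Fpr2, a formyl peptide receptor (28.6, 84.1, 350.8 and 137.7 in BMM, pOC, mOCp and mOCd, 4.17-fold).

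Immediate early genes and phosphatases were higher for 6 of 24 eligible, with Dusp1, a MAP kinase phosphatase (180.2 to 493, 2.74-fold), the polo-like kinases Plk2 (100.5 to 237.6) and Plk3 (77.6 to 174.2) and Ier3 (59.2 to 121.3) among them. The list's median of 0.14 turned to −0.18 with the spike-ins, and 1 of 24 was then counted as higher. Egr1 and Junb, members of the same class, read 34.7 to 22.9 and 450.1 to 290.2. Among Toll-like receptor genes Irak2 (168.7 to 429.7) and Irak3 (39.6 to 146.8), a positive and a negative regulator of the pathway, were both higher, and Pycard, the inflammasome adaptor, was lower (687 to 315.3), while the list median of 0.12 turned to −0.11 with the spike-ins.

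Antioxidant genes were higher for 7 of 25 eligible members and lower for 0, and the median of 0.38 became 0.00 with the spike-ins. Hmox1, which breaks down heme, had 1192.3, 394.6, 2115.2 and 1262.5 in BMM, pOC, mOCp and mOCd (5.36-fold). Gstm1, a glutathione transferase, was 2.78-fold higher (181 to 503.5) and Osgin1 2.69-fold (30.1 to 81.1). The list also holds oxidant makers: Cybb, the catalytic subunit of the phagocyte NADPH oxidase, had 2449.8, 877.1, 2416.6 and 1071.3 in BMM, pOC, mOCp and mOCd (2.76-fold) and Ncf1, its cytosolic partner, 1265.7, 156.6, 439.9 and 126.5 in BMM, pOC, mOCp and mOCd (2.81-fold). Classical NRF2 targets such as Nqo1 (35.1 to 49.7), Gclc (193 to 156.3) and Txnrd1 (1934.8 to 1598.9) were not counted.

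Iron and heme genes were higher for 4 and lower for 2 of 23 eligible members, and the median of 0.30 turned to −0.11 with the spike-ins. Higher were Slc11a2, the iron importer DMT1 (122.6, 251.3, 560.4 and 459.3 in BMM, pOC, mOCp and mOCd, 2.23-fold), Steap4, a ferrireductase (0.6, 115.7, 289.1 and 206.8 in BMM, pOC, mOCp and mOCd, 2.50-fold), Lcn2, which binds siderophores (121.4 to 367.9), and Hmox1. Lower were Alad, an enzyme of heme synthesis (152 to 60.7, 2.50-fold), and Slc25a37, the mitochondrial iron importer (136.3 to 66.1, 2.06-fold). The transferrin receptor Tfrc read 3397.8 to 5818.9. The other metallothioneins, Mt1 and Mt2, read 2245.1 to 4107.8 and 592.5 to 1066.1 and, unlike Mt3, were not counted.

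Histone genes did not share a direction. H2ac19, a core histone H2A, had 117, 197.1, 3374.3 and 2797.6 in BMM, pOC, mOCp and mOCd (17.1-fold higher), and H2bc21, a core histone H2B, 82.3, 109.8, 1162.7 and 754.4 in BMM, pOC, mOCp and mOCd (10.6-fold). H1f2, a linker histone chosen after its values were seen, had 715.1, 799.5, 2903 and 2259.4 in BMM, pOC, mOCp and mOCd (3.63-fold), and H2ax, the variant phosphorylated at DNA breaks, chosen likewise, 690.1, 646.1, 112.1 and 124.7 in BMM, pOC, mOCp and mOCd (5.76-fold lower). Histone genes have near-identical copies and the probe sets of the first pair can match several, so which copy was measured is uncertain.

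Mitotic genes were lower for 45 of 47 eligible members and higher for 0, with a median of −2.22 that spike-in scaling moved to −2.62. Cdc20, which activates the anaphase-promoting complex, had 1414.5, 1374.2, 145.4 and 196.3 in BMM, pOC, mOCp and mOCd (9.45-fold lower). Ube2c, the ubiquitin-conjugating enzyme of that complex, had 1572, 1938.3, 258.4 and 216.4 in BMM, pOC, mOCp and mOCd (7.50-fold), and Ect2, which places the cleavage furrow, 518.8, 214, 28.6 and 35.3 in BMM, pOC, mOCp and mOCd (7.48-fold). Kif11, the spindle motor, had 372.5, 245.4, 38.5 and 27.4 in BMM, pOC, mOCp and mOCd, and Ccnb2, a mitotic cyclin, 873.5, 819.2, 138.3 and 112.2 in BMM, pOC, mOCp and mOCd. For these 5 genes both mature arrays lay below both earlier ones. Ndc80, a kinetochore protein, was at the floor in mOCp (82.4 to 9.8, at least 5.57-fold).

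The exceptions among eligible mitotic genes were Espl1, separase, which cuts cohesin (199.7 to 279.9), and Pttg1, securin, which holds separase back (940.3 to 897). Cdca3, a mitotic entry factor outside the list, was 6.59-fold lower (686.3 to 104.1), but its second probe set read −0.01 on the log2 scale. Nek2 and Aurka, mitotic kinases, read 304.6 to 28.9 and 597.2 to 88.7.

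Replication genes were lower for 31 of 48 eligible members (median −1.50) and repair genes for 13 of 19 (median −1.17). Pola1, the catalytic subunit of polymerase alpha, had 167 in pOC and 27.4 in mOCp (6.09-fold), its primase Prim1 308.9 in pOC and 58.9 in mOCp (5.24-fold) and the helicase subunit Mcm7 1398.2 in pOC and 314.4 in mOCp (4.45-fold). Rrm2, the regulated subunit of ribonucleotide reductase, had 2131.5, 1693.8, 438.6 and 430.8 in BMM, pOC, mOCp and mOCd (3.86-fold). Rad54l, a recombination motor, was 5.47-fold lower (214.5 to 39.2), Timeless, a fork protection protein, 4.92-fold (88.5 to 18) and Fancd2, of the Fanconi pathway, 4.10-fold (102.8 to 25.1).

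Other S-phase genes differed less. Pcna, the sliding clamp, had 5589.8, 3390.7, 2152.3 and 1481.6 in BMM, pOC, mOCp and mOCd, Cdt1, a licensing factor, 2031.4, 1973, 1205.2 and 1780.8 in BMM, pOC, mOCp and mOCd, and Gmnn, its inhibitor geminin, 1031.5 in pOC and 687.6 in mOCp, and none was counted. Chaf1b, a subunit of the chromatin assembly factor, was brighter in mOCp, at 239.7, 232.3, 410 and 606.2 in BMM, pOC, mOCp and mOCd, though not 2-fold. Rad21, a cohesin subunit, read 929.5 to 997.6.

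Regulators of the cycle were higher for 3 and lower for 3 of 25 eligible members, shares near those over all genes. E2f8, Tfdp1 and E2f1, factors of the E2F system, were 6.41-fold, 2.82-fold and 2.31-fold lower (140.3 to 21.9, 703.6 to 249.6 and 173.1 to 75). Cdkn2b, the CDK inhibitor p15, was 2.60-fold higher (51.4 to 133.5), Ccng2, a cyclin of arrested cells, 2.23-fold (87.6 to 195.7) and Tob1, an antiproliferative protein, 2.20-fold (84.5 to 186). Cdkn1a and Cdkn1b, the inhibitors p21 and p27, read 645.4 to 733.6 and 220.4 to 144.5. The list median of 0.04 turned to −0.30 with the spike-ins, where the same list held 0 higher and 7 lower members.

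Cell death genes did not share a direction. Pmaip1, the BH3 protein NOXA, had 93.3, 71.5, 952 and 224.4 in BMM, pOC, mOCp and mOCd (13.3-fold), Mcl1, the survival protein it binds, 2042.4, 2082.3, 4404.4 and 3873.3 in BMM, pOC, mOCp and mOCd (2.12-fold), and Bak1, a pore-forming member of the family, was 2.46-fold lower (154 to 62.7). Bcl2l11, which encodes BIM, read 440.6 to 853.7 and Bbc3, PUMA, 69.5 to 60.3. The p53 and BCL2 list held 5 higher, Bnip3 of the hypoxia list among them, and 1 lower of 22 eligible. Its median of 0.26 became 0.00 with the spike-ins.

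Among lists with at least 20 eligible genes, ribosome biogenesis had a share of lower members that was exceeded by mitosis and the interferon response. Of 40 eligible members 35 were lower and 0 higher (median −1.33). Nop58 and Nop56, cores of the particles that methylate ribosomal RNA, had 264.4, 442.8, 47.4 and 65.5 in BMM, pOC, mOCp and mOCd (9.34-fold) and 563.8, 768.6, 184.4 and 174.1 in BMM, pOC, mOCp and mOCd (4.17-fold). Dkc1, the pseudouridine synthase of the nucleolus, had 419.7, 649.1, 84.3 and 113.1 in BMM, pOC, mOCp and mOCd (7.70-fold), with other probe sets at −2.90 to −2.61 on the log2 scale. For these 3 genes pOC was the brightest of the 4 arrays.

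Subunits of RNA polymerase I, which transcribes ribosomal RNA, were lower as well: Polr1e (111.1 to 24.3, 4.57-fold), Polr1b (211 to 53.6, 3.94-fold), Polr1c (374.6 to 169.1, 2.22-fold) and Polr1a (138.8 to 66.5, 2.09-fold). Nolc1 (4.34-fold), Mybbp1a (3.92-fold) and Utp20 (3.89-fold) are further nucleolar proteins counted. Npm1, nucleophosmin, and Ncl, nucleolin, had 5297.5 in pOC and 2869 in mOCp and 4038.4 in pOC and 2089.3 in mOCp and just missed 2-fold. With spike-in scaling 40 of 40 were lower.

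Fewer of the ribosome's own proteins were counted. Cytosolic ribosomal protein genes had a median of −0.03 with the deposited scaling. It was −0.25 with quantile scaling, −0.28 with loess, −0.40 without suffixed probe sets and −0.44 with the spike-ins. Of 36 eligible members 4 were lower (11.1%, against 11.4% of all eligible genes), Rpl12 (128 to 35.7), Rps25 (609.4 to 216.4), Rps6 (325.4 to 154) and Rpl14 (191.9 to 93.6). Rps6 had a second probe set at 0.29 on the log2 scale. The spike-ins gave 4 of 36 lower as well. Rplp0 and Rps14 read 7848.8 to 8474.2 and 6941.9 to 7832.6. Near-identical pseudogenes of ribosomal proteins make the target of such probe sets uncertain. Median shifts under 2-fold were seen in the proteasome (−0.46, 5 of 37 lower, or 15 of 37 with the spike-ins) and in tRNA synthetases (−0.39, 3 of 19 lower: Kars 825.6 to 350.5, Tars 549.2 to 247.5 and Hars 1233.1 to 607.5), where the spike-ins gave 7 of 19 lower.

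Nucleotide synthesis and one-carbon genes were lower for 9 of 20 eligible members and higher for 0 (median −0.72). Ctps, which makes CTP from UTP, had 196.3, 267.1, 19.1 and 57.6 in BMM, pOC, mOCp and mOCd (a log2 ratio of −3.81), and Cad, the first enzyme complex of pyrimidine synthesis, 112, 236.4, 47.4 and 60.6 in BMM, pOC, mOCp and mOCd (4.99-fold). Gart, of purine synthesis, had 286.9, 498.5, 153.7 and 131.7 in BMM, pOC, mOCp and mOCd (3.24-fold) and Shmt2, which feeds mitochondrial one-carbon units, 341.7, 522.3, 173.4 and 155.7 in BMM, pOC, mOCp and mOCd (3.01-fold). The pentose phosphate enzymes in the list stayed near their pOC level, with Pgd at 2906.6 to 3745.8, Tkt at 3914.4 to 4093.4 and Taldo1 at 2631.8 to 2859.3. The lower members, Shmt1, Mthfd1, Ppat, Atic and Gmps included, were nucleotide and folate enzymes.

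Genes of amino acid stress split in a list whose median of 0.18 turned to −0.11 with the spike-ins. Higher were Nupr1, a stress-induced nuclear protein (63.5, 72, 344.3 and 349.8 in BMM, pOC, mOCp and mOCd, 4.78-fold), Ddit3, the factor CHOP (59.8 to 141.3, 2.36-fold), Gpt2, a transaminase (66.7 to 162.4, 2.43-fold), Sesn2 (50.8 to 126.2) and Vldlr. Lower were Psat1 and Phgdh of serine synthesis (560.4 to 145.8, 3.84-fold, and 114.9 to 53.7, 2.14-fold) and the transporters Slc7a5 (137.6 to 25.8, 5.33-fold) and Slc7a1 (850.6 to 419.7, 2.03-fold). Known targets of the factor ATF4 thus lay on both sides.

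Endoplasmic reticulum genes divided likewise, 5 higher and 4 lower of 28 eligible, with a median of 0.02 that turned to −0.38 with the spike-ins and below 0 with quantile scaling too. Ero1a, Atf6 (125.2 to 388.9), Dnajb9 (429.9 to 887) and Ppp1r15a, the regulator GADD34 (145.2 to 319.7), were higher. Ero1b was counted as higher too (111.3 to 425.1), but its other probe sets read −1.28 to −0.45 on the log2 scale. The lower members were Creld2 (478.1 to 138.3, 3.46-fold), Pdia4 (377.7 to 128.6, 2.94-fold), Sdf2l1 (758.2 to 338.7, 2.24-fold) and Manf (2290.5 to 1094.7, 2.09-fold). Hspa5, the chaperone BiP, read 5697.9 to 3749.2.

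Interferon response genes were lower for 25 of 28 eligible members and higher for 0 (median −1.90, −2.30 with the spike-ins). Oas1a, which makes the messenger that activates RNase L, had 1738.9, 1325.6, 140.7 and 83.3 in BMM, pOC, mOCp and mOCd (9.42-fold lower in mOCp than in pOC). Oas2 had 228.7, 266.6, 38.8 and 30.7 in BMM, pOC, mOCp and mOCd (6.87-fold) and Oas3 283.5, 101.5, 4.6 and 5.3 in BMM, pOC, mOCp and mOCd (at least 6.86-fold). Gbp3, a guanylate-binding protein, had 100, 210.8, 21.5 and 16.6 in BMM, pOC, mOCp and mOCd (9.80-fold), and Oasl2 1165.5, 199.4, 15.7 and 0.9 in BMM, pOC, mOCp and mOCd (12.7-fold). Oas2 and Gbp3 were brightest in pOC, the others in BMM, and all 5 were lower in both mature arrays than in either earlier one.

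Sensors of viral RNA were lower with them, Dhx58 (123.7 to 25.1, 4.93-fold) and Ifih1 (172.8 to 38.6), as were Xaf1 (314.3 to 59.6, 5.27-fold), Rsad2, viperin (108.5 to 21, 5.17-fold), and Irf9, part of the factor that interferon activates (232.8 to 79.1, 2.94-fold). Rtp4 had the lowest ratio of all counted genes above the floor on both arrays (2700.4, 1667, 77.2 and 14.9 in BMM, pOC, mOCp and mOCd, 21.6-fold), while its second probe set read −0.07 on the log2 scale. Eligible members not counted were Samhd1 (340.9 to 384.3), Trim25 (640.7 to 551.7) and Oasl1 (105.2 to 64.3).

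Antigen presentation through MHC class I was lower for 4 of 14 eligible genes: Psmb8 and Psmb10, catalytic subunits of the immunoproteasome (962.5 to 345.6, 2.79-fold, and 463.3 to 190.6, 2.43-fold), Tap1, the peptide transporter (198 to 81.7, 2.42-fold), and Erap1, which trims peptides (104.1 to 48.5). Psmb8 is also a counted member of the proteasome list. The heavy chain H2-K1 (3645.3 to 3544.6) and B2m, its partner (5824.4 to 6538.2), were not counted. Lgals9, galectin-9, was 3.73-fold lower (1912.2, 436.4, 117 and 42.9 in BMM, pOC, mOCp and mOCd).

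Markers of other marrow cells were checked for RNA that such cells could bring. Of 20 stromal and osteoblast markers with a probe set 8 were above the floor on either array, their summed intensity was 433.1 in pOC and 271.7 in mOCp, and 1 was counted, Dcn, decorin (196.1 to 55, 3.57-fold lower). Summed intensities were 96 and 100.1 for 9 erythroid, 111.8 and 109.4 for 11 B cell and 79 and 83.1 for 11 T and NK cell markers, with 0 eligible genes in each.

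Neutrophil markers had sums of 1042.6 and 2120.9, with 3 of 5 eligible higher in mOCp, Lcn2, S100a8 (380.1 to 1112.6) and Ngp (44.2 to 101.2), in a list whose median of 0.40 became 0.00 with the spike-ins. The granule genes Mpo and Elane were near or under the floor in mOCp (29.4 to 24.2 and 41 to 12.5). Dendritic and mast cell markers had sums of 108.5 and 225.7 and 1 gene counted, Itgax, and endothelial and megakaryocyte markers 1746 and 2632.6, mostly Pf4 (1477.3 to 2370). The part of such cells in any result was not tested.

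Other lists had few eligible genes, so that their shares rest on at most 3 genes a side, and these were AP-1 factors (1 higher and 1 lower of 8 eligible), MHC class II genes (1 and 1 of 5), heat shock genes (1 and 2 of 10), clock genes (1 and 0 of 7), calcium and phosphate transport (1 and 0 of 11) and interleukins with their receptors (3 and 1 of 12). Cd83, a surface protein of activated antigen-presenting cells, was the higher gene of the MHC class II list (29.8 to 134.1, 4.50-fold). Hspa4 was 2.34-fold lower (1701 to 725.5) in the heat shock list, against other probe sets at −0.17 to 0.24 on the log2 scale. In the remaining lists, TNF ligands and receptors had 4 higher and 1 lower of 13, scavenger receptors 3 and 0 of 14, complement genes 5 and 0 of 10, lectins 3 and 1 of 10, growth factors 5 and 0 of 10, semaphorins with ephrins 2 and 0 of 12, and nucleotide and lipid mediator receptors 3 and 0 of 8. With the spike-ins the medians of clock genes (0.14), of scavenger receptors (0.18) and of carbonic anhydrases with chloride transport (0.40, 2 of 11 higher) became 0.00.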

How the data were processed

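Total RNA of 4 samples was primed with oligo-dT, copied into biotin-labelled cRNA and hybridised to 1 Affymetrix mouse array each, per the labels' protocols. The authors deposited linear signal intensity, scaled to a trimmed mean of 100; the submitters' processing notes list MAS5. Of 45101 probe sets, 34945 had exactly 1 symbol in the platform annotation of 2016, 932 had several and 9160 had none, besides 64 controls, and 34741 were matched to RefSeq by Entrez ID. The values were used as deposited and then taken to log2. The floor was each array's median of probe sets other than controls, each gene took the probe set of highest mean floored log2 over the 4 arrays, and a ratio with both values at the floor was set to 0. A bound, written "at least", has the dimmer value at the floor. With 1 array a group no test was run, and precision is limited by how few arrays there are.

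Named by rule were the 15 highest and 15 lowest counted ratios above the floor on both arrays (clone names aside), up to 10 of the brightest genes on each side at the floor on the other array and at least 4-fold apart, members of the lists, and Cthrc1. The members and lists were chosen with earlier results of these data known. Lists, ratios and promoter motifs were computed with Python 3.11.15, numpy 2.4.6 and pandas 2.3.3, and the code was tested on simulated data. Alternatives were spike-in, median, quantile and loess scaling, other floors, thresholds and probe set choices. The raw scanner files were not used here.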

Additional observations from a re-analysis of the deposited data

How the results depend on the processing

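With the main settings 633 genes were higher in mOCp and 820 lower. Scaling to the spike-ins gave 299 and 1585, averaging probe sets 452 and 522, and a 3-fold threshold 218 and 297. The other 9 alternatives left both counts within 1.5 times: 659 and 790 with median scaling, 641 and 753 with quantile, 648 and 759 with loess, 933 and 1127 with no brightness limit, 483 and 654 with brightness judged over 4 arrays, 531 and 665 without suffixed probe sets, 632 and 820 with a floor at the 25th percentile, 633 and 820 at the 60th, and 659 and 772 with quantile scaling of the 2 arrays alone, the last chosen after seeing the data. None of the 42 genes named for the size of their ratio changed direction under these alternatives, of which the one without suffixed probe sets covered 35. Their ratios were picked for being large, so the spike-in shift of 0.40 could not have reversed them. Without suffixed probe sets the log2 ratio of Cdca3 was −0.01, against −2.72 with the main settings. List members above the floor on both arrays with a log2 ratio between 0 and 0.40 turned negative with the spike-ins. List medians that change sign with the spike-ins are given above, and that of the endoplasmic reticulum list also turned below 0 with quantile scaling and that of the cyclin list without suffixed probe sets. A value is called moved here where it shifted by at least 0.397, the SD between probe sets. Of 66 lists, the median moved for 35 with the spike-ins, 6 with the lower floor and 2 with averaged probe sets. Of the 42 genes 42, 10 and 15 moved, besides 15 with the floor at the 60th percentile and 8 of 35 without suffixed probe sets. Spike-in scaling itself shifts a ratio above the floor by 0.404, so that 42 of 42 genes moved was fixed by the rule and tells nothing about single genes. The spread between cultures is unknown, and values near the floor carry no order. No paired analysis was possible because each group has 1 array and the labels number no replicates.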

Other observations

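Families picked by symbol after their values were seen held further genes that were lower in mOCp, and as a choice made on these data they support nothing. Of 8 eligible host transcripts of small nucleolar RNAs 6 were lower in mOCp (median log2 ratio −1.12), with Snhg3 at 380.4 to 57.2 (6.65-fold). Nuclear pore proteins were lower for 10 of 18 (median −1.26), and exosome subunits, which trim and degrade RNA, for 4 of 9 (median −0.75). Spliceosome core proteins were lower for 15 of 39 (median −0.88), hnRNP and SR splicing factors for 8 of 28 (median −0.66), and subunits of the chaperonin CCT, which folds actin and tubulin, for 3 of 8 (median −0.83). In these 6 families 0 members were higher. Enzymes that modify tRNA and rRNA had 13 lower (33.3%) and 1 higher of 39. Nearer the 11.4% lower over all eligible genes were translation initiation factors, with 7 lower (15.6%) and 0 higher of 45.

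Other such families lay on the higher side. MICAL genes, which encode oxidases of actin, were higher for 3 of 3 eligible, tropomyosins, troponins and calponins for 3 of 6, and tetraspanins for 5 of 13 with 1 lower. Among histones 4 of 8 were higher and 1 lower. Of guanylate-binding proteins and GTPases of the Irg family 5 of 5 were lower, a group that overlaps the interferon list.

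Probe sets without a symbol behaved much like the named genes. Of 516 eligible ones 55 were at least 2-fold higher in mOCp (10.7%) and 69 lower (13.4%). Of 424 eligible probe sets with several symbols 35 were higher (8.25%) and 56 lower (13.2%).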
